A study of Mus musculus with 10 samples.

Results

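The transcripts described here encode the machinery that fills, docks and fuses synaptic vesicles. They are 33 genes chosen by name from the 48526 gene identifiers of the series. Of these, 3 encode synapsins, 3 other vesicle proteins (Syp, Synpr and Sv2a), 6 synaptotagmins, 2 Doc2 calcium sensors and 4 SNARE proteins. The rest encode 1 SNAP adaptor, 3 complexins, 3 Munc13 priming factors, 6 active zone scaffold proteins and 2 vesicular glutamate transporters. Each of the 33 was found in the table and each reached the mean of 10 normalized counts needed for testing, as did 17007 genes in all. They were measured by poly(A) RNA sequencing of microdissected dentate gyrus from C57Bl/6 mice aged 8 weeks. In 5 control mice an adeno-associated virus of serotype 9 (AAV9) encoding green fluorescent protein (GFP) had been injected into the dentate gyrus of both hemispheres, and in 5 mice AAV9 encoding Sox11, a transcription factor of immature neurons. The control animals thus carried virus and injection as well. The sources used here do not give the promoter in the viruses, the cells they reached or the time between injection and dissection.

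A synaptic vesicle is filled with transmitter by a transporter in its membrane and is tethered by synapsins. RIM, Bassoon, Piccolo and ERC proteins hold it at the active zone, the patch of membrane where release takes place. Munc13 proteins prime it by helping the vesicle SNARE synaptobrevin to pair with the plasma membrane SNAREs syntaxin and SNAP-25. Complexins bind this complex, calcium entering the terminal acts on synaptotagmins to trigger fusion, and NSF with its SNAP adaptors then takes the SNARE complex apart. In the dentate gyrus the granule neurons use glutamate, and their axons, the mossy fibres, run to area CA3. Their terminals are a classic preparation for synapses with low release probability and strong facilitation.

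Transcripts of the release machinery were lower in the Sox11 libraries for 14 of the 33 genes (42.4%), among them synaptophysin, synaptotagmin 1, SNAP-25, synaptobrevin 1 and the vesicular glutamate transporter VGLUT1. Synapsin III was the single member that rose, and 18 members did not pass the test. Of all 17007 genes tested, 9.36% were lower and 9.65% were higher by the same rule, limma's moderated test on log2(normalized count + 1) with an adjusted p under 0.05. Among the 8149 genes whose mean reached 1000 normalized counts, a floor that most members passed, 14.5% were lower. Above that floor the genes were not matched to the members by level. The group means of the 14 members changed by -16.5% to -30.3%, with log2 fold changes of -0.26 to -0.51. The median log2 fold change was -0.29 over the 33 members and -0.01 over all genes, and 31 of the 33 members were below 0, against 51.5% of all genes. In bulk tissue, fewer cells of a type and less RNA per cell cannot be told apart.

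**Figure D1:**
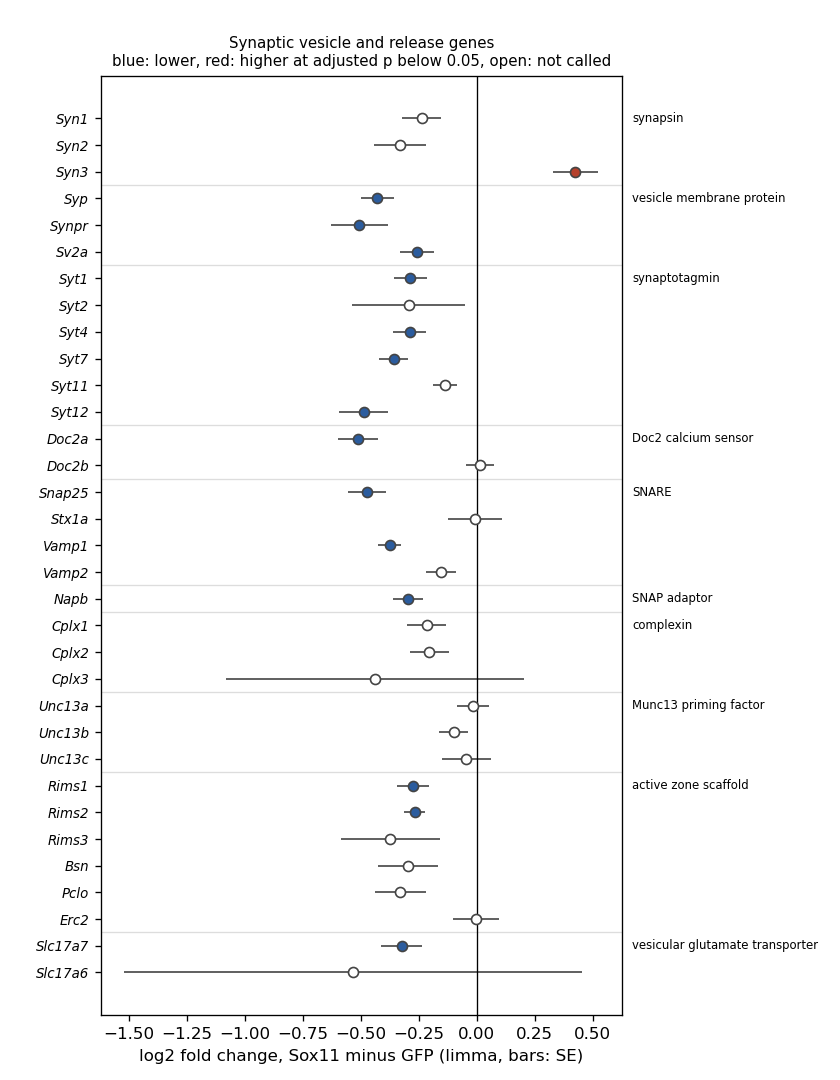
Log2 fold change of each of the 33 genes, Sox11 minus GFP (limma on log2(normalized count + 1), n = 5 per group, bars are SE), ordered by role. Filled blue points are the 14 genes that fell, the filled red point is Syn3, and open points did not pass; the widest bars belong to Slc17a6 and Cplx3.

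Libraries are named by the numbers in the deposited table, and values are listed in the order GFP 1, 3, 4, 5 and 6, then Sox11 1, 2, 3, 6 and 7. Between 45100154 and 68769808 reads were assigned to genes per library. Sox11 itself ranged from 1364 to 1634 normalized counts over the GFP group and from 9803 to 20434 over the Sox11 group, with viral and mouse transcripts counted together. The dentate granule neuron gene Prox1 was between 13354 and 22834 normalized counts in all 10 libraries. Markers of neighbouring tissue differed among libraries. The 10 thalamus markers summed to 17632 normalized counts in GFP 1, 19472 in GFP 3 and 11243 in Sox11 1. In the other 7 they summed to between 6702 and 9215, highest in GFP 4. The Sox11 1 sum included Zic1 at 3344 and Zic4 at 834 normalized counts, the highest of the 10 libraries for both. Tcf7l2, Lef1 and Rgs16 were also higher in Sox11 1 than in GFP 4, while Prkcd, Rora, Ntng1, Gbx2 and Plekhg1 were lower. The 8 choroid plexus markers summed to 378327 normalized counts in GFP 3 and to between 755 and 3255 elsewhere. The 4 CA1 markers summed to 9722, 11905, 13038, 4618 and 6451 with GFP and to 13712, 12360, 5295, 7731 and 5329 with Sox11. The 4 oligodendrocyte markers summed to between 52681 (Sox11 3) and 124591 (Sox11 1). Libraries numbered 1 to 3 (2 GFP, 3 Sox11) and 4 to 7 (3 GFP, 2 Sox11) are also described apart where a result differs between these divisions.

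The start sites of 4 members that fell are shown as letters, since they carry out successive steps of release: loading (Slc17a7), the vesicle membrane (Syp), calcium sensing (Syt1) and fusion (Vamp1). Each window holds 300 bases around a transcription start of RefSeq (GRCm38.p6), written 5′ to 3′ along the gene's strand, in lower case. Capitals mark matches, on either strand, to the motifs searched. These were GGGCGG, the GC box bound by Sp1-type factors, AACAAT and AACAAAG, which resemble sites bound by Sox proteins, and TGACGTCA, the cAMP response element.
Slc17a7, chr7:45163671-45163970, plus strand: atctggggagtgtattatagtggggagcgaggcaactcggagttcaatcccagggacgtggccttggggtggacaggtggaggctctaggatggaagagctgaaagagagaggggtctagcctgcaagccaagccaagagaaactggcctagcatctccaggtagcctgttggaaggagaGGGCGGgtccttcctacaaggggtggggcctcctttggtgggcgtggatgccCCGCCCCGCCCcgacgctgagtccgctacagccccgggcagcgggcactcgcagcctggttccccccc
Syp, chrX:7638330-7638629, plus strand: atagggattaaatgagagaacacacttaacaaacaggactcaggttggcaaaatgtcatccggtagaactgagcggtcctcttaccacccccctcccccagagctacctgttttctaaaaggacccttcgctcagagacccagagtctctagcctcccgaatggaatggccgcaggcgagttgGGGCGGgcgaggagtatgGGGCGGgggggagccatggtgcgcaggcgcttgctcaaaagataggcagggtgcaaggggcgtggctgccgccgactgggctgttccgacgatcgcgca
Vamp1, chr6:125215331-125215630, plus strand: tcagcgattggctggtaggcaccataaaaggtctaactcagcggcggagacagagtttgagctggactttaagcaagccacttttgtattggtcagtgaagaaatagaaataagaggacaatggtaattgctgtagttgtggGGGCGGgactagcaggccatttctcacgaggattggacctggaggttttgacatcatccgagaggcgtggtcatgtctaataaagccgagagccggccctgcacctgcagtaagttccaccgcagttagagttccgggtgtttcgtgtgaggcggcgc
Syt1, outer start, chr10:109010926-109011225, minus strand: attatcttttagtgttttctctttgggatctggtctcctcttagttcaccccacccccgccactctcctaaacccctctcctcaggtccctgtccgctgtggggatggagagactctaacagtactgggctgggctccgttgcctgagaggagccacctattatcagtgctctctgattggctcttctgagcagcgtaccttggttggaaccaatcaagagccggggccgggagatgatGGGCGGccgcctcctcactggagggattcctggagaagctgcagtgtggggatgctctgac
Syt1, inner start, chr10:109009062-109009361, minus strand: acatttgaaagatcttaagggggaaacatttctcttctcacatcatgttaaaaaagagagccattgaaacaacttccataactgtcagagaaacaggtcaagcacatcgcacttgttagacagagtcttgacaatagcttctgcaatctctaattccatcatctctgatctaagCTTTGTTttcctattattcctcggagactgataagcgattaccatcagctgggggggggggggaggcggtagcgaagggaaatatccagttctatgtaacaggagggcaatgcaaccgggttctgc
The first 4 windows each held GGGCGG, with 3 matches at Slc17a7, 2 of which overlap, 2 at Syp and 1 each at Vamp1 and at the outer Syt1 start. The inner Syt1 start held AACAAAG on the opposite strand.

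Promoter windows were matched for 24 of the 33 members, 29 windows in all. The members with none in the table were Syn3, Syt4, Syt7, Syt12, Doc2a, Doc2b, Snap25, Vamp2 and Rims2. GGGCGG occurred in 20 of the 29 windows (69.0%), against 35.7% of the 32851 mouse windows in the table. The median GC content was 62.3% in the member windows and 52.7% in all windows. AACAAT was in 0 of the 29 windows (10.7% of all), AACAAAG in 1, that of Syt1 (5.85% of all), and TGACGTCA in 1, that of Syn1 (1.79% of all). A match describes these letters only.

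All 3 members grouped here as other vesicle proteins, Syp, Synpr and Sv2a, fell. Syp encodes synaptophysin, an abundant membrane-spanning protein of the vesicle and a standard marker of terminals (ENSMUSG00000031144, chromosome X, 7638471 to 7653256, plus strand, GRCm38). It had 67445, 61398, 72411, 76774 and 76372 normalized counts with GFP and 54989, 53538, 55187, 51684 and 47349 with Sox11. Every Sox11 library lay below every GFP library. The means were 70880.0 ± 6499 and 52549.6 ± 3228 normalized counts (SD, n = 5 each), a difference of -0.43 on the log2 scale (SE 0.07, limma adjusted p = 0.00216).

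Synpr encodes synaptoporin, a relative of synaptophysin that is rich in mossy fibre terminals (ENSMUSG00000056296, chromosome 14, 13284780 to 13616340, plus strand). Its GFP values were 14129.8, 12776, 15407, 20633 and 17733 normalized counts, and its Sox11 values 10672, 9808, 10715, 12318 and 12728. The groups just failed to meet, Sox11 7 lying below GFP 3, and GFP 5 was the highest library. The log2 fold change was -0.51 (SE 0.12, limma adjusted p = 0.0163), and the change of the mean, -30.3%, was the largest in percent among the 14. Synpr was also the single member lower at the threshold within the libraries numbered 1 to 3 alone (adjusted p = 0.0395).

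Sv2a, a vesicle glycoprotein that binds the antiepileptic drug levetiracetam, had 21487, 18229, 20919.8, 23226 and 22600.3 normalized counts in GFP samples and 19132, 18115, 18796, 16835 and 15984 in Sox11 samples. GFP 3 lay within the range of the Sox11 group. Its log2 fold change was -0.26 (SE 0.07, limma adjusted p = 0.0311), and the call was lost without GFP 1, 4, 5 or 6 or Sox11 2, 6 or 7 (adjusted p from 0.0526 to 0.0724).

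Synapsins, the phosphoproteins that cluster vesicles in the terminal, did not share 1 direction. Syn1 had 28760.0 ± 3144 and 24329 ± 2068 normalized counts (SD, n = 5 each) in GFP and Sox11 libraries, and Syn2 had 51604 ± 8250.2 and 40770.0 ± 4664. Their log2 fold changes, -0.24 (SE 0.08) for Syn1 and -0.33 (SE 0.11) for Syn2, missed the threshold in limma (adjusted p = 0.0676 and 0.0635). Both passed without GFP 3 (adjusted p = 0.0315 for Syn1 and 0.0147 for Syn2), and Syn2 also without Sox11 3 (0.0410). Within the libraries numbered 4 to 7 their log2 fold changes were -0.46 and -0.54, and within those numbered 1 to 3 -0.00 and -0.07.

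Syn3, the synapsin expressed early in neuronal development (ENSMUSG00000059602, chromosome 10, 86055125 to 86498896, minus strand), rose. Its GFP values were 605, 624, 583, 535 and 537 normalized counts and its Sox11 values 765, 685, 662, 927 and 862. The groups did not overlap, and Sox11 6 and Sox11 7 stood highest. On the log2 scale the change was 0.43 (SE 0.10, limma adjusted p = 0.0107), with adjusted p-values of 0.00782 to 0.0284 as each library was left out. It was 0.19 within the libraries numbered 1 to 3 and 0.70 within those numbered 4 to 7. Timp3, on the opposite strand, covers 14.1% of the exonic bases of Syn3 and had a log2 value of -0.30 (SE 0.30, adjusted p = 0.560). At 47.0 normalized counts per kilobase of exon in the GFP libraries, Syn3 was the lowest of the 33 members by level.

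**Figure D2:**
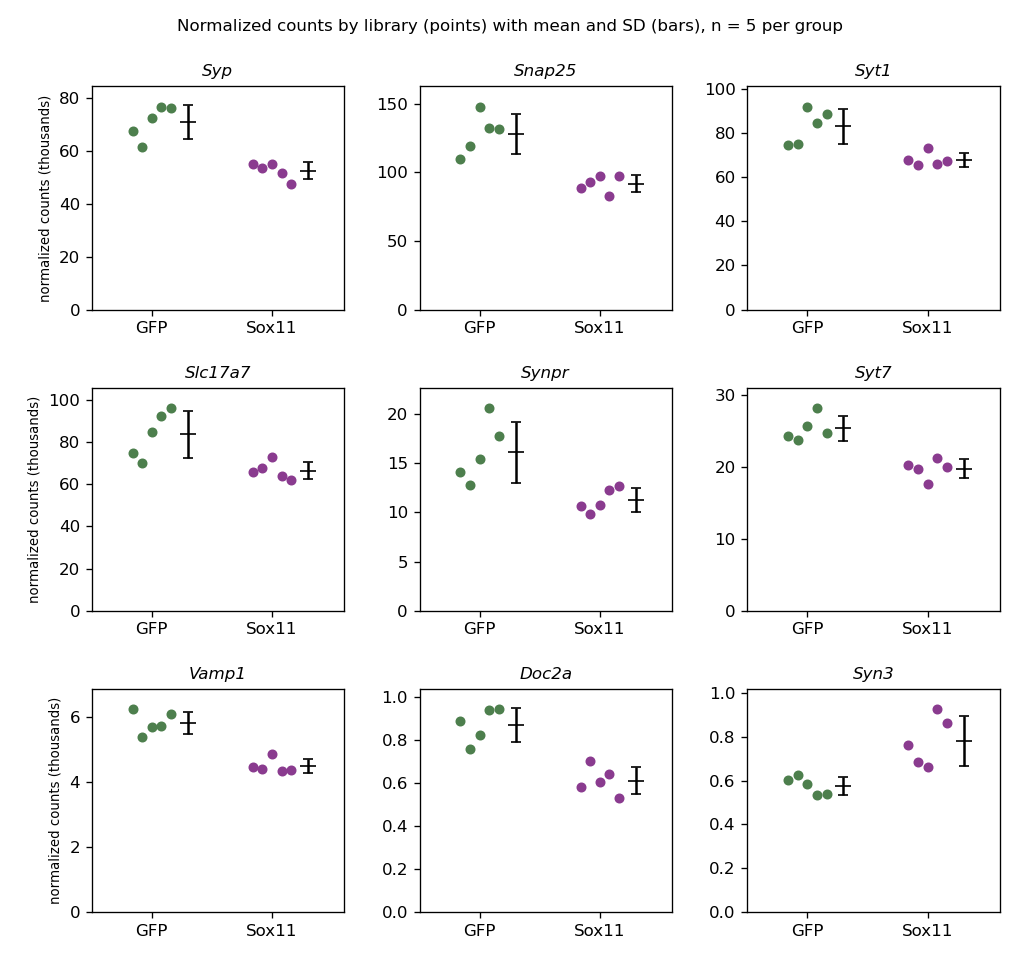
Normalized counts by library (in units of 1000) for 9 members, 1 point per library, with the mean and SD beside each group (n = 5 each, axes from 0). The Sox11 points lie below all GFP points for Syp, Snap25, Syt1, Synpr, Syt7, Vamp1 and Doc2a, overlap with them for Slc17a7 and lie above them for Syn3.

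Synaptotagmins fell in 4 of 6 cases. Syt1, the fast calcium sensor of most forebrain synapses (ENSMUSG00000035864, chromosome 10, 108497650 to 109010982, minus strand), had 74562, 75109, 91964, 84642 and 88821 normalized counts in the GFP group and 67663, 65464, 73061, 65831 and 67384 in the Sox11 group. Every Sox11 library was lower than every GFP library, although Sox11 3 came close to GFP 1. The log2 fold change was -0.29 (SE 0.07, limma adjusted p = 0.0150).

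Syt7, a slower, high-affinity calcium sensor that serves facilitation and asynchronous release, had 24346, 23803, 25726, 28209 and 24662 normalized counts with GFP and 20338, 19723, 17625, 21236 and 19932 with Sox11. The groups were apart, with Sox11 6 and GFP 3 nearest to each other. Its log2 fold change was -0.36 (SE 0.06, limma adjusted p = 0.00260), and of nearly equal size within the libraries numbered 1 to 3 (-0.33) and 4 to 7 (-0.35).

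Syt12, which binds no calcium and serves long-term potentiation at mossy fibre synapses, had 1435, 1693, 1776, 1431 and 1665 normalized counts in GFP samples and 1348, 1229.9, 1215, 1011 and 928 in Sox11 samples. The groups did not overlap, and the Sox11 libraries numbered 6 and 7 were the lowest. On the log2 scale the change was -0.49 (SE 0.11, limma adjusted p = 0.00795).

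Syt4, another synaptotagmin with weak calcium binding, had 7792, 7502, 9329.8, 8783 and 9006 normalized counts in the GFP group and 7499.7, 7042, 6708, 6312 and 7057 in the Sox11 group. The groups did not overlap, but Sox11 1 and GFP 3 all but met. The log2 fold change was -0.29 (SE 0.07, limma adjusted p = 0.0141). Opposite-strand genes with a mean below 10 normalized counts cover 14.5% of the exonic bases of Syt4 and 17.2% of those of Syt12.

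The remaining synaptotagmins did not pass. Syt11, which also lacks calcium binding, had 42567, 41751, 47802, 46577 and 47631 normalized counts in the GFP libraries, while the Sox11 libraries held 40513 to 41587. Here the groups were apart, yet the log2 fold change was small (-0.14, SE 0.05, limma adjusted p = 0.0854, and 0.0365 without GFP 3). Syt2, the fast sensor of the hindbrain and of parvalbumin interneurons, had 937, 549, 659.9, 438 and 595 normalized counts with GFP and 814, 539, 414, 503 and 348 with Sox11. Its highest values were in GFP 1 and Sox11 1, libraries with high thalamus sums. GFP 3, the library with the highest thalamus sum, was below GFP 4 and GFP 6. The log2 fold change of -0.29 (SE 0.24) had a limma adjusted p of 0.466.

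The Doc2 proteins, soluble calcium sensors for spontaneous and asynchronous release, gave different calls. Doc2a (ENSMUSG00000052301, chromosome 7, 126847416 to 126852705, plus strand) had 891, 760.2, 825, 938 and 944 normalized counts in GFP samples and 579.6, 702, 604, 643 and 531 in Sox11 samples. The groups did not overlap. The log2 fold change of -0.51 (SE 0.09, limma adjusted p = 0.00211) was the largest decrease on that scale among the members that passed. The value is uncertain because Ino80e, on the opposite strand, covers 39.4% of the exonic bases of Doc2a and the sources used here do not give the strand setting of the counting. The log2 fold change of Ino80e was 0.11 (SE 0.04, adjusted p = 0.13). Doc2b had 7843 ± 219 and 7933 ± 686 normalized counts (SD, n = 5 each), a difference of 0.01 on the log2 scale (SE 0.06, limma adjusted p = 0.925). The difference between the changes of Doc2a and Doc2b was not tested.

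Of the SNARE proteins, 2 of 4 fell. Snap25, the plasma membrane SNARE that gives 2 of the helices of the fusion complex (ENSMUSG00000027273, chromosome 2, 136713453 to 136782428, plus strand), had 109597, 118972, 147958, 132527 and 131572 normalized counts in the GFP group and 88939.7, 93061, 97224, 83104 and 97237 in the Sox11 group. The highest Sox11 library was below the lowest GFP library, GFP 1. The mean fell by 28.3%, with a log2 fold change of -0.47 (SE 0.08, limma adjusted p = 0.00256).

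Vamp1, synaptobrevin 1, the vesicle SNARE best known from the brainstem and spinal cord (ENSMUSG00000030337, chromosome 6, 125215551 to 125245964, plus strand), had the smallest adjusted p among the members. Its GFP values were 6247, 5395, 5696, 5718 and 6089 normalized counts and its Sox11 values 4457, 4402, 4863, 4343 and 4373. The groups were apart and the spread within each was small, with SDs of 339 and 214 around means of 5829 and 4488 (n = 5 each). On the log2 scale the change was -0.38 (SE 0.05, limma adjusted p = 0.000621), and it was -0.35 within the libraries numbered 1 to 3 and -0.42 within those numbered 4 to 7.

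Vamp2, the synaptobrevin of most forebrain synapses, had 48669.6, 45798, 53328, 52743 and 54482 normalized counts with GFP and 47728, 48376, 47279, 42278 and 43203 with Sox11. GFP 3 lay below 3 Sox11 libraries. Its log2 fold change was -0.16 (SE 0.06, limma adjusted p = 0.12, and 0.0454 without GFP 3). Stx1a, syntaxin 1A, the plasma membrane partner of SNAP-25, had 4517 ± 584 and 4501 ± 704 normalized counts (SD, n = 5 each), a difference of -0.01 on the log2 scale (SE 0.12, limma adjusted p = 0.976). Its sign differed between the libraries numbered 1 to 3 (0.28, adjusted p = 0.200) and 4 to 7 (-0.30, adjusted p = 0.0472).

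Napb, beta-SNAP, an adaptor that brings NSF to spent SNARE complexes, fell. It had 35801, 34518, 41478, 41847 and 41534 normalized counts in GFP samples and 30795, 31802, 32331, 30327 and 33198 in Sox11 samples. The groups did not overlap, and the log2 fold change was -0.30 (SE 0.07, limma adjusted p = 0.00916).

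Ratios between related members were compared within each library, 5 pairs in all, with two-sided exact permutation tests over assignments of 5 of the 10 libraries and Benjamini-Hochberg adjustment over the 5 pairs. Vamp1 stood at 12.8%, 11.8%, 10.7%, 10.8% and 11.2% of the Vamp2 count in the GFP libraries and at 9.34%, 9.10%, 10.3%, 10.3% and 10.1% in the Sox11 libraries. The ratio was lower in every Sox11 library than in any GFP library. The difference was -0.22 on the log2 scale (exact permutation p = 0.00794, the smallest possible here, adjusted p = 0.0397). It no longer passed without Sox11 1 or without Sox11 2 (adjusted p = 0.0794 in each case), with differences of -0.20 and -0.19. The other 4 ratios overlapped between the groups, with adjusted p = 0.976 each. They were Syt2 over Syt1 (0.519% to 1.26% in GFP, 0.518% to 1.2% in Sox11 libraries), Cplx1 over Cplx2 (19.7% to 24.3% and 18.6% to 26.0%), Cplx3 over Cplx2 (0.0693% to 0.877% and 0.0733% to 0.237%) and Slc17a6 over Slc17a7 (0.149% to 4.29% and 0.201% to 1.85%).

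**Figure D3:**
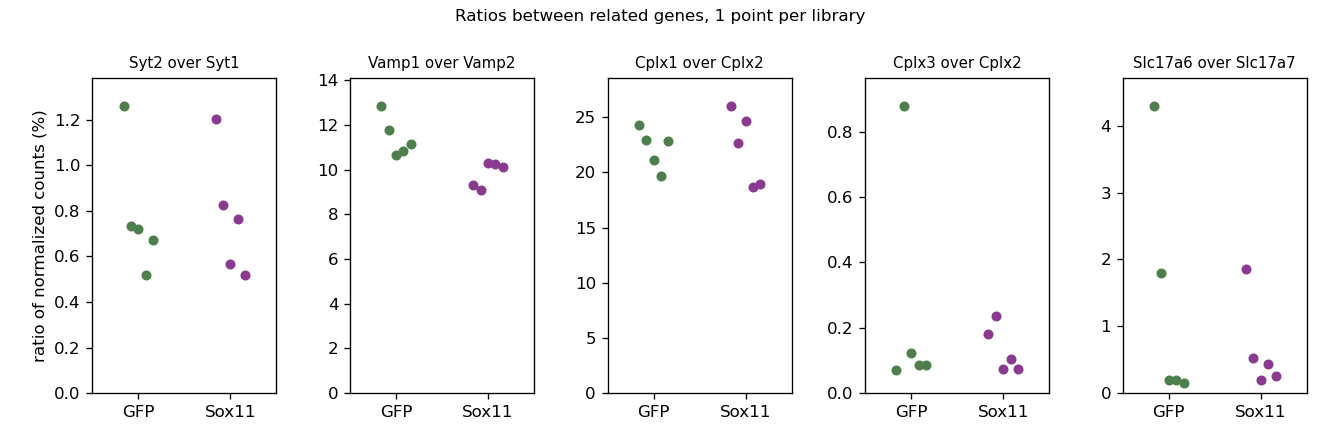
Ratio of normalized counts of 5 pairs of related members (percent, 1 point per library, n = 5 per group, axes from 0). The groups are apart for Vamp1 over Vamp2, 10.7% to 12.8% in GFP and 9.10% to 10.3% in Sox11 libraries, and overlap for the other 4 pairs.

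Complexins, the small proteins that clamp and assist the SNARE complex, gave 0 calls of 3 in limma (2 at an unadjusted p below 0.05) and in edgeR, and 1 in DESeq2, that of Cplx2. Cplx2, at 25382 normalized counts per kilobase of exon in the GFP libraries the highest of the 33 members by level, had 125083 ± 15527 and 107896 ± 5411 normalized counts (SD, n = 5 each). Cplx1 had 27575 ± 2279 and 23799.8 ± 2709.6. On the log2 scale the differences were -0.21 (SE 0.08) for Cplx2 and -0.22 (SE 0.08) for Cplx1, at limma adjusted p-values of 0.116 and 0.10 with all libraries and 0.0324 and 0.0492 without GFP 3. Cplx3, a complexin of retinal ribbon synapses and of the cortical subplate, had 77.3, 931, 154, 124 and 112 normalized counts in the GFP group and 184, 244, 78.3, 113 and 83.6 in the Sox11 group. GFP 3, the library with the highest choroid plexus markers, was far above the rest, and the log2 fold change was -0.44 (SE 0.64, limma adjusted p = 0.717).

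The 3 Munc13 genes gave 0 calls in limma, also at an unadjusted p below 0.05, and 0 in edgeR and DESeq2. Unc13a, the main priming factor of glutamate synapses, had 19220.3 ± 1699 and 18970.0 ± 1166 normalized counts (SD, n = 5 each), a difference of -0.02 on the log2 scale (SE 0.07, limma adjusted p = 0.91). Unc13b had 2313 ± 242 and 2149 ± 33.8 normalized counts (-0.10, SE 0.06, adjusted p = 0.317). Unc13c, best known from cerebellar granule cells, had 1225 ± 186 and 1180.3 ± 119.7 (-0.05, SE 0.11, adjusted p = 0.830). In each case the groups overlapped.

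Of the active zone scaffolds, Rims1 and Rims2 fell. Rims1 encodes RIM1, which recruits calcium channels and Munc13 and is needed for mossy fibre long-term potentiation. It had 9861, 10718, 12372, 11701 and 11869.7 normalized counts with GFP and 8768, 8600.1, 9985, 9577 and 9692 with Sox11, and Sox11 3 overlapped with GFP 1. Its log2 fold change was -0.28 (SE 0.07, limma adjusted p = 0.0169).

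Rims2, its close relative, had 2936, 2792, 2917, 2765 and 3160.1 normalized counts in GFP samples and 2436, 2530.2, 2348, 2424 and 2359 in Sox11 samples. The groups were apart and this was the member with the smallest SE, with a log2 fold change of -0.27 (SE 0.05, limma adjusted p = 0.00219). Rims3, a short RIM protein, had 5159, 3513, 2343, 2480.5 and 2843 normalized counts in the GFP group and 2839, 2724, 2543, 2255 and 1845 in the Sox11 group. GFP 1 and GFP 3 stood above the other 8, and the log2 fold change of -0.37 (SE 0.21) did not pass (limma adjusted p = 0.267).

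The giant scaffolds Bassoon and Piccolo had lower means without passing. Bsn had 28843 ± 5425 and 23324 ± 2976 normalized counts (SD, n = 5 each), a difference of -0.30 on the log2 scale (SE 0.13, limma adjusted p = 0.14). Pclo had 15407 ± 2118 and 12241 ± 1670.4 (-0.33, SE 0.11, adjusted p = 0.0591), and passed without GFP 1 or without Sox11 6 (adjusted p of 0.0168 and 0.0215). Erc2, which encodes the scaffold CAST, had 19877 ± 2388 and 19826 ± 2448 normalized counts, a difference of -0.00 on the log2 scale (SE 0.10, adjusted p = 0.988).

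The vesicular glutamate transporters differed in how evenly they were spread over the libraries. Slc17a7 encodes VGLUT1, the transporter of hippocampal and cortical glutamate neurons (ENSMUSG00000070570, chromosome 7, 45163949 to 45176142, plus strand). It had 74798, 70301, 84835, 92286 and 96184 normalized counts with GFP and 65698, 67713, 72925, 64064 and 61882 with Sox11. Sox11 3 lay above GFP 3, and the rest of the Sox11 group lay below every GFP library. The log2 fold change was -0.32 (SE 0.09, limma adjusted p = 0.0264), and the call was lost without GFP 4, 5 or 6 or Sox11 1, 6 or 7 (adjusted p from 0.0554 to 0.0617). Within the libraries numbered 1 to 3 the log2 fold change was -0.08 and within those numbered 4 to 7 -0.53.

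Slc17a6 encodes VGLUT2, the transporter of thalamic and other subcortical glutamate neurons. It had 3206, 1266, 170.5, 181 and 142 normalized counts in GFP samples and 1217, 359, 145, 278 and 159 in Sox11 samples. The 3 libraries above 1000 normalized counts, GFP 1, GFP 3 and Sox11 1, were also the 3 highest in the summed thalamus markers. On the log2 scale the difference was -0.53 (SE 0.99, limma adjusted p = 0.786), and without those 3 libraries it was 0.42. The part of neighbouring tissue in the levels of Slc17a6, Syt2, Rims3 and Cplx3 was not tested.

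**Figure D4:**
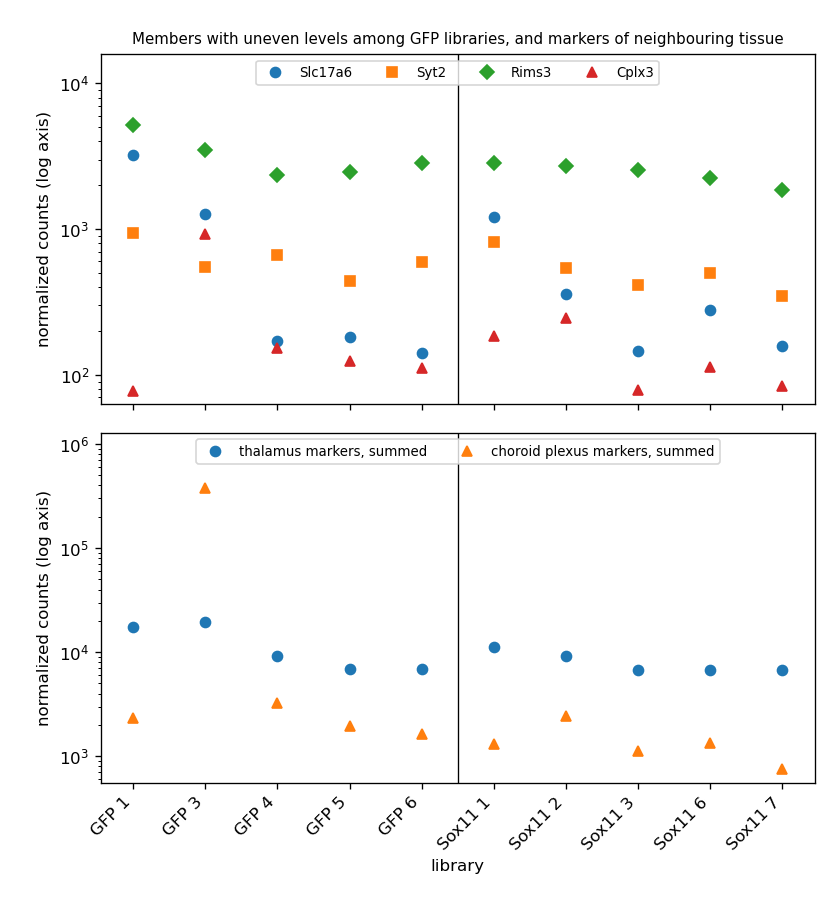
Normalized counts by library on log axes, above for Slc17a6, Syt2, Rims3 and Cplx3 and below for the summed thalamus and choroid plexus markers. Slc17a6 and the thalamus sum are highest in GFP 1, GFP 3 and Sox11 1, and Cplx3 and the choroid plexus sum are highest in GFP 3.

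All 14 members that fell were lower in Sox11 libraries within the division numbered 1 to 3 and within that numbered 4 to 7. Their median log2 fold change was -0.24 in the former, where 1 member (Synpr) passed and 2.49% of all genes were lower at the threshold. It was -0.44 in the latter, where 21 members were lower at the threshold, the 14 included, against 7.91% of all genes, and Syn3 was higher. The difference between the divisions was not tested. The 14 were chosen from these same libraries. For the 11 of them whose groups did not overlap, a lower value within each division was fixed in advance. Their direction in the divisions is thus no separate support. The libraries numbered 1 to 3 include GFP 1, GFP 3 and Sox11 1, which had the highest thalamus sums. GFP 1, GFP 3 and Sox11 1 were left out together in an alternative chosen after seeing the data. That choice kept GFP 4 and Sox11 2, with CA1 marker sums of 13038 and 12360 normalized counts. There 22 members were lower, against 8.14% of all genes, and 1 was higher, against 7.33%. The 14 were all among the 22, and Syn1, Syn2, Syt11, Vamp2, Cplx1, Cplx2, Bsn and Pclo were the others. Of the 14, 12 passed with each library left out in turn, the exceptions being Sv2a and Slc17a7.

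**Figure D5:**
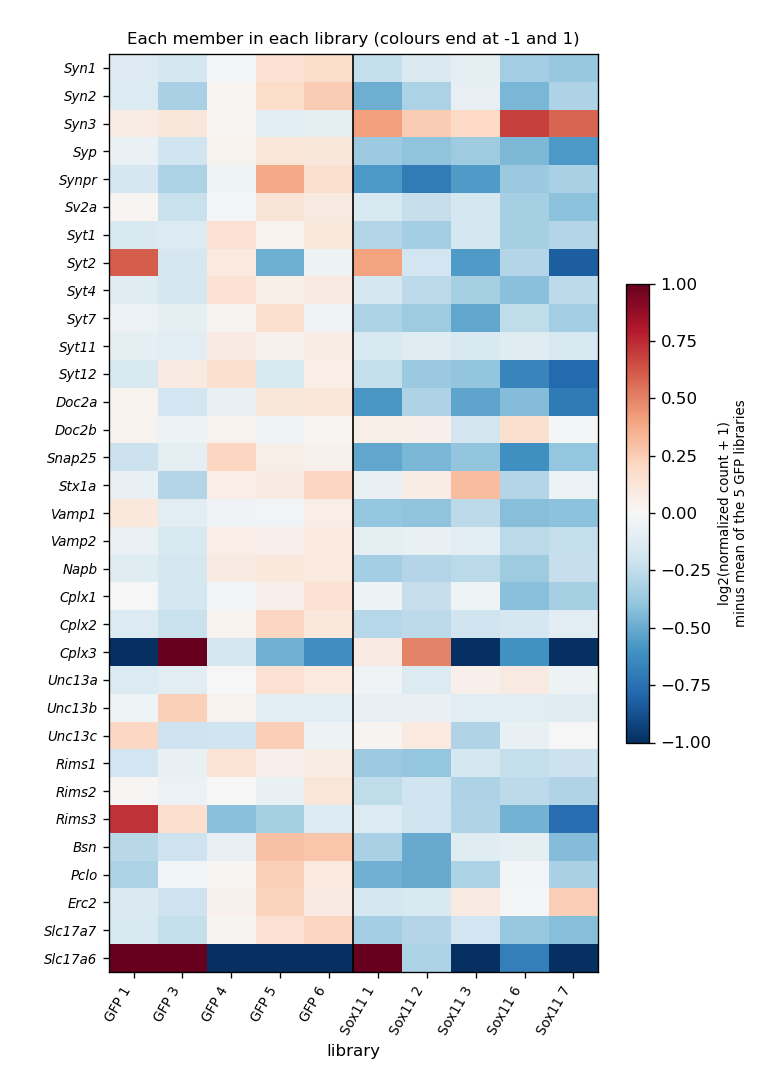
Each of the 33 members (rows) in each library (columns) as the difference of log2(normalized count + 1) from the mean of the 5 GFP libraries, blue lower and red higher, with colours ending at -1 and 1. The Sox11 columns are mostly blue, Syn3 is red in all 5 of them, and Syt2, Cplx3, Rims3 and Slc17a6 vary among libraries of the same group.

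The members that fell were found at every level of abundance. By normalized counts per kilobase of exon in the GFP libraries, Cplx2 was followed by Snap25 (18867), Slc17a7 (15519), Syp (13602) and Vamp2 (13390). The 11 members of highest level included 5 that fell, the middle 11 also 5 and the lowest 11 included 4. The 13 members whose groups did not overlap (39.4%, against 15.9% of all genes) were 11 of the 14 that fell, Syt11 and Syn3. The 3 that fell with overlapping groups were Sv2a, Rims1 and Slc17a7.

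Decreases also occurred among other genes of vesicle release and recycling. Of 79 such genes outside the members, each tested, 19 fell (24.1%), 2 rose (2.53%) and 58 did not pass, with a median log2 fold change of -0.09. The shares over all genes tested were 9.36% lower and 9.65% higher, and 14.5% lower among genes whose mean reached 1000 normalized counts. The counts for the sublists that follow stand against the same shares. Among 18 further vesicle proteins 7 fell: Tprgl, which encodes the Bassoon partner Mover (-0.29, SE 0.05, limma adjusted p = 0.00342), the small GTPases Rab27b (-0.39, SE 0.08, adjusted p = 0.00470) and Rab3d (-0.21, SE 0.05, adjusted p = 0.0178), and Syngr1, Sypl, Sv2c and Sncb. The calls of Sypl (without GFP 4, Sox11 1 or Sox11 3), Sv2c (without any library except GFP 3 and Sox11 6) and Sncb (without any library except GFP 3) were lost at adjusted p-values of up to 0.0608, 0.0971 and 0.108. Of 8 further synaptotagmins 1 changed: Syt5 rose from 6298 ± 657 to 8922 ± 381 normalized counts (SD, n = 5 each), a difference of 0.51 on the log2 scale (SE 0.07, limma adjusted p = 0.000704).

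Some fusion, active zone and endocytosis genes outside the members fell as well. Of 15 SNARE fusion genes 4 fell. They were the SNAP adaptors Napg (-0.33, SE 0.06, limma adjusted p = 0.00392) and Napa (-0.22, SE 0.05, adjusted p = 0.00598), the vesicle SNARE Vamp4 (-0.25, SE 0.07, adjusted p = 0.0237) and the ATPase Nsf. Vamp4 lost its call without GFP 4, GFP 6, Sox11 2 or Sox11 3 and Nsf without GFP 4, 5 or 6 or Sox11 1, 2, 6 or 7, at adjusted p-values of up to 0.0538 and 0.0787. Of 15 priming and active zone genes 3 fell: Lin7b, a scaffold protein (-0.56, SE 0.10, adjusted p = 0.00309), Cadps, the priming factor CAPS1 (-0.31, SE 0.07, adjusted p = 0.00894), and the liprin Ppfia4 (-0.28, SE 0.06, adjusted p = 0.0112). Erc1, the relative of Erc2, rose by 0.27 (SE 0.07, adjusted p = 0.0205, and 0.0521 without Sox11 3). Among 19 genes of endocytosis, which recovers vesicle membrane, 5 fell, led by Pacsin1 (-0.51, SE 0.07, adjusted p = 0.000877), Itsn2 (-0.32, SE 0.06, adjusted p = 0.00285) and the clathrin heavy chain Cltc (-0.24, SE 0.05, adjusted p = 0.00848), with Dnm1 and Synj1. Of the 4 other vesicular transporters 0 passed in limma (0 at an unadjusted p below 0.05), edgeR or DESeq2.

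Markers of neurons and of other cells moved beside these genes. The counts for the marker lists that follow stand against 9.36% lower and 9.65% higher over all genes tested. Of 6 general neuron markers 4 fell: Thy1 (-0.54, SE 0.12), Eno2 (-0.47, SE 0.08), Nefl (-0.27, SE 0.07) and Nefm (-0.22, SE 0.06), as log2 fold changes. For Rbfox3, which encodes the nuclear protein NeuN, the value was -0.00 (SE 0.05), and for Map2 0.21 (SE 0.11, limma adjusted p = 0.226). Summed, the 6 ranged from 181614 to 216480 normalized counts with GFP and from 169136 to 199050 with Sox11. Nefl lost its call without GFP 4, 5 or 6 or Sox11 2 or 6, and Nefm without GFP 1, 4, 5 or 6 or Sox11 2, 3 or 6 (adjusted p of up to 0.0589 and 0.0685).

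Of 6 granule neuron markers C1ql2, Plk5 and Sema5b fell, while Prox1 (log2 fold change 0.20, SE 0.15), Calb1 (0.16, SE 0.15) and Dsp (0.09, SE 0.15) did not pass. The sum of the 6 ranged from 43354 to 63394 normalized counts with GFP and from 45046 to 63618 with Sox11. C1ql2 lost its call without GFP 1, 5 or 6 or Sox11 1, 2, 3 or 7 and Sema5b without GFP 4, 5 or 6 or Sox11 1, 3 or 7 (adjusted p of up to 0.0866 and 0.0595). Of 12 interneuron markers Lamp5, Kcnc2, Npy and Gad2 fell, with sums of 53191 to 62239 and 40018 to 52087 normalized counts that did not overlap. The other 8, Gad1, Slc32a1, Pvalb, Sst, Vip, Cck, Lhx6 and Erbb4, did not pass, with Slc32a1 at -0.07 and Lhx6 at 0.06. Of the 12, 11 had log2 fold changes below 0. Of 5 markers of parvalbumin interneurons, which are known to use Syt2, Kcnc1 fell and Kcnc2, which is on both lists, with sums of 19551 to 22541 and 13656 to 16579.7 normalized counts. These sums are mostly Kcnc1 and Kcnc2, at GFP means of 11134 and 5524. Pvalb itself (-0.26, SE 0.17), Tac1 (-0.15, SE 0.26) and Erbb4 (-0.29, SE 0.10) did not pass. Gad2 lost its call without GFP 4, 5 or 6 or Sox11 6 or 7 (adjusted p of up to 0.0595).

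Of 6 mossy cell markers Ajap1, Nmb and Ociad2 fell (sums of 11387 to 14321 and 9530.2 to 12906 normalized counts). Calb2 (log2 fold change 0.06, SE 0.24), Csf2rb2 (0.06, SE 0.18) and Drd2 (-0.18, SE 0.16) did not pass. Of 5 CA3 markers Nptx1 fell. The other 4 CA3 markers, Iyd, Coch, Cpne4 and Bok, did not pass and had log2 fold changes above 0, with a list median of 0.16. The CA3 sums of 64045 to 90359 normalized counts with GFP and 52881 to 60823 with Sox11 are mostly Nptx1, at a GFP mean of 61470.2. Among immature neuron markers 4 of 5, Dcx, Stmn1, Tubb3 and Dpysl5, rose. The other, Sox4, did not pass (log2 fold change -0.17, SE 0.09, limma adjusted p = 0.201). The list summed to 15816 to 19303 normalized counts with GFP and 36417 to 48655 with Sox11. Gfap and Aldh1l1 of 5 astrocyte markers rose. Aqp4 (log2 fold change 0.04, SE 0.12), Slc1a3 (0.08, SE 0.09) and Gja1 (0.03, SE 0.07) did not pass. The astrocyte sums overlapped, at 84822 to 98782 normalized counts with GFP and 91390.3 to 109267 with Sox11. Of 4 CA1, 10 thalamus, 8 choroid plexus, 4 oligodendrocyte and 4 microglia markers, 30 in all, 0 passed in limma (4 at an unadjusted p below 0.05) and in edgeR, and 3 in DESeq2, all from the thalamus list. The choroid plexus marker Tmem72 was at 0 in Sox11 7. The part of shifts in cell makeup in the changes of the release genes was not tested.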

How the data were processed

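Poly(A) RNA of microdissected dentate gyrus, stored in RNAlater, was made into stranded TruSeq libraries, per the labels' protocols. Per the submitters' processing notes, the build was GRCm38 and the tools, listed without roles, were R 3.3.1, DESeq2 1.12.3, STAR 2.5.2a, featureCounts 1.5.1, Subread, cutadapt 1.9.1 and bcl2fastq 1.8.4. The sources used here do not name the strand setting or annotation release. The authors deposited a signal for each gene, the normalized count, equal to reads divided by 1 factor per library. All values above 0 (100%) were whole multiples of 1 read within 0.01 reads, so whole reads were recovered for the count tests. Each recovered library held at least 45100154 reads. Of the 48526 identifiers, 48144 matched GENCODE M21, the source of symbols and coordinates. The column numbers differ from those in the titles, so a column was given a group but no title, each library being taken as 1 of the 10 mice.

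The 17007 genes whose mean reached 10 normalized counts were tested with limma 3.58.1 (trend and robust options) in R 4.3.3 on log2(normalized count + 1), a scale that understates changes of low genes. Benjamini-Hochberg adjustment ran over all genes, with a threshold of 0.05, and fold changes are Sox11 minus GFP. The members, gene lists, markers and ratios were chosen with earlier results of these data known, and the motifs after seeing them. Every member is named; of other release genes, those past the threshold are named, with values for the 3 rises and 3 falls of lowest p per sublist. The alternatives tried were edgeR 4.0.16 and DESeq2 1.42.0 on reads, limma without trend and robust, TMM scaling, pseudocounts of 0.5 and 8, a minimum mean of 50 or none, the column number as a block or as a division, and libraries left out. The limma step was tested on simulated data. Each of the 20 pairs of libraries of 1 group differed by more than sampling noise. Tables and plots were made with pandas 2.3.3, matplotlib 3.10.9 and numpy 2.4.6 in Python 3.11.15.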

Additional observations from a re-analysis of the deposited data

Results flagged for a closer look

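Within 66 groups of 5 libraries (33 members, 2 groups each), 4 held a highest library set apart from the other 4, where chance gives such a gap in about 1 group in 20. Syt1 was at 73061 normalized counts in Sox11 3, the highest of its group, and Vamp1 was at 4863 in the same library. Both values were still below every GFP library. Cplx3 was at 931 normalized counts in GFP 3, the library with the highest choroid plexus markers. Slc17a6 was at 1217 normalized counts in Sox11 1, the Sox11 library with the highest thalamus sum. The causes of these gaps were not tested.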

How the results depend on the processing

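The counts of members that fell (14) and rose (1) stayed within 1.5 times under both other pseudocounts, both other filters, TMM scaling, limma without trend and robust, edgeR (14 and 1), DESeq2 (20 and 1) and the division as a covariate, and the same 14 passed in each of these. Of all genes, 12.3% were lower at the threshold in DESeq2, 8.88% in edgeR and 11.6% with the division, against 9.36% in the main test. With single libraries left out, 12 to 20 members were lower and 1 higher. Other release genes (19 lower, 2 higher) gave 14 to 22 lower and 1 to 3 higher, and all genes gave 1175 to 1701 lower and 1282 to 1584 higher. Without GFP 1, GFP 3 and Sox11 1 together, a choice made after seeing the data, 22 members were lower and 1 other release gene was higher. With the division as a covariate 7 of the 79 other release genes were higher, against 12.2% of all genes. The groups share only 3 column numbers, and the same-numbered libraries correlated at 0.19, 0.07 and 0.41 (numbers 1, 3 and 6), with only number 6 matching its own number best, so the numbers were not taken as pairs. With the number as a replicate block, 0 members and 0 other release genes passed in limma in either direction (14 and 19 at an unadjusted p below 0.05), and of all genes 4 were lower and 45 higher.

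Some members that did not pass changed sign on the log2 scale: Doc2b, Stx1a, Unc13a, Unc13c and Erc2, all near 0, and Cplx3 and Slc17a6, whose levels were uneven among libraries. Stx1a was at 0.0040 in edgeR and 0.0290 with the block, Unc13a at 0.010 with the division and 0.0855 with the block, and Erc2 at 0.0040 with TMM scaling, 0.0040 in edgeR, 0.0442 with the division and 0.0537 with the block. Without the 3 libraries Doc2b was at -0.0044 and Slc17a6 at 0.418. With single libraries left out the ranges were -0.0243 to 0.0621 for Doc2b, -0.0887 to 0.0626 for Stx1a, -0.729 to 0.164 for Cplx3, -0.0498 to 0.0223 for Unc13a, -0.0978 to 0.0163 for Unc13c, -0.0660 to 0.0519 for Erc2 and -1.03 to 0.176 for Slc17a6. For ratios they were -0.246 to -0.180 (Vamp1 over Vamp2), -0.183 to 0.180 (Syt2 over Syt1), -0.0709 to 0.0488 (Cplx1 over Cplx2), -0.489 to 0.427 (Cplx3 over Cplx2) and -0.706 to 0.538 (Slc17a6 over Slc17a7). The causes of these changes were not tested. With 5 libraries a group, differences near or below the SE given for each gene are not resolved. Some well above their SE did not pass either, such as those of Syn1 (-0.24, SE 0.08) and Pclo (-0.33, SE 0.11). Cplx3 rests on few reads in most libraries.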
